A study of Mus musculus with 9 samples.

Results

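The subunits of the receptors for glutamate and GABA were examined in mouse brain tissue around striatal injection sites, 2 days after injection of a baculoviral vector. Members were taken by gene symbol, as every probe set whose single annotated symbol was that of an AMPA, NMDA, kainate, delta or metabotropic glutamate receptor subunit or of a GABA-A or GABA-B receptor subunit. This gave 80 probe sets for 38 genes, of 18193 named genes on the array. The AMPA group held 4 genes, the NMDA group 6, the kainate group 5, the metabotropic group 6 and the GABA-A group 15, with the delta receptor gene Grid1 and the GABA-B gene Gabbr1 as the only members of their groups here.

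All animals were adult male immunocompetent BALB/c mice, and every group held 3 of them with 1 array each, labelled as biological replicates. Both vector groups received BV-HSVtk, a vector derived from an insect virus, by stereotaxic injection into the striatum of each hemisphere, at 100000000 particles in 10 µL per side. HS mice were given vector that had only been centrifuged at high speed, and MC+HS mice vector that had passed a membrane chromatography step before the high-speed centrifugation. Mock mice were given Sf9 (insect cell) medium without baculovirus after the same chromatography and centrifugation. Between HS and mock the vector and its purification thus differ together and cannot be told apart. The 8 medium spiny neuron markers present on the array, among them the dopamine receptors Drd1 and Drd2, all passed the filter on dim probe sets. So did all 5 cortical and all 4 thalamic markers and 3 of 4 markers of the choroid plexus, and these values do not show that striatum alone was sampled.

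Glutamate is the main excitatory transmitter of the striatum and reaches it in the axons of cortical and thalamic neurons. AMPA and kainate receptors are ion channels that carry the fast response, NMDA receptors are channels that also admit calcium and act in synaptic plasticity, and metabotropic receptors signal through G proteins. GABA is the transmitter of the medium spiny neurons and interneurons themselves, and acts on GABA-A chloride channels, assembled from alpha, beta and further subunits, and on G protein-coupled GABA-B receptors.

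Values below are log2(signal + 16) with the array medians set equal, called the log2 signal, and are listed in the order of replicates 1, 2 and 3. They are compared only within a probe set, because the brightness of different probe sets is not comparable. Of the 80 probe sets, 65 for 33 genes exceeded the 40th percentile of an array's signals on 3 or more of the 9 arrays and are called measured. Grin2a, Gabra6, Gabrq, Gabrr1 and Gabrr2 had no measured probe set, and 15 probe sets in all were left out. The measured genes were all 4 of the AMPA group, 5 of 6 NMDA, 5 of 5 kainate, Grid1, 6 of 6 metabotropic, 11 of 15 GABA-A and Gabbr1. Since a probe set could pass through the arrays where it was bright, counts and medians over the measured probe sets describe them and support nothing further.

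The array of HS replicate 1 differed from the rest. Its log2 signals had a median correlation of 0.757 with those of the remaining 8 arrays, against 0.956 to 0.979 for the others, and their SD was 1.54, against 2.17 to 2.39. Median signals ranged from 147 to 263 intensity units over the 9 arrays. Each comparison is therefore given from all 9 arrays and from the 8 arrays without HS replicate 1, where the HS group is 2 mice.

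The receptor subunits read low on HS replicate 1, and more so the brighter their probe sets. The median of the 33 genes lay at -1.44 on the log2 scale relative to the mean of the mock mice, against -0.73 for all genes, while the other 5 vector arrays lay between -0.10 and 0.05. Of the 40 probe sets with a mock mean of at least 9, 39 were below all mock mice on HS replicate 1, with a median difference of -1.71. Among the 25 with a mock mean under 9 the differences went both ways, with 8 above and 11 below all mock mice and a median of -0.13. Across the 65 probe sets the difference had a correlation of -0.71 with the mock mean, a description over probe sets of 1 array. The lowest readings relative to mock were those of the AMPA subunit Gria2 (1434146_at, -3.98), the kainate subunit Grik5 (-3.96) and the GABA-A subunit Gabra2 (1455444_at, -3.62). The highest were Gabbr1 (1425595_at, 2.65), the NMDA subunit Grin2d (1421393_at, 2.26) and the GABA-A subunit Gabrb2 (1450319_at, 1.83), all from dim probe sets. The 10 pan-neuronal markers had a median of -0.67 on that array (-3.35 to 0.04) and the 8 medium spiny neuron markers one of -1.81 (-4.16 to -0.058). Medians of the other lists of synaptic genes and cell type markers ran there from -1.79 (cortical excitatory neurons) to -0.36 (microglia and macrophages). The receptor genes were not matched to all genes for brightness. The part of tissue content or RNA quality in the readings of this array was not tested.

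**Figure D1:**
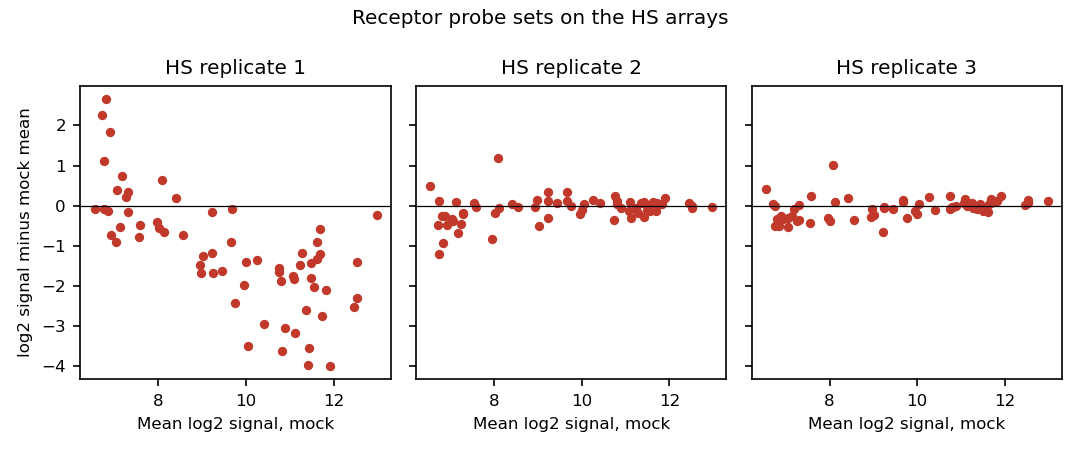
Difference of each of the 65 measured receptor probe sets from its mock mean (vertical axis, log2 scale) on the 3 HS arrays, against its mean log2 signal in the mock mice (horizontal axis). On HS replicate 1 the difference falls with the mock mean, reaching -3.98, and on replicates 2 and 3 the 40 probe sets with a mock mean of at least 9 have medians of 0.011 and 0.0035, while dimmer ones scatter more widely, Grm2 at 1.18 and 1.01 and Gabra2 1449807_x_at at -1.21 on replicate 2 among them.

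**Figure D2:**
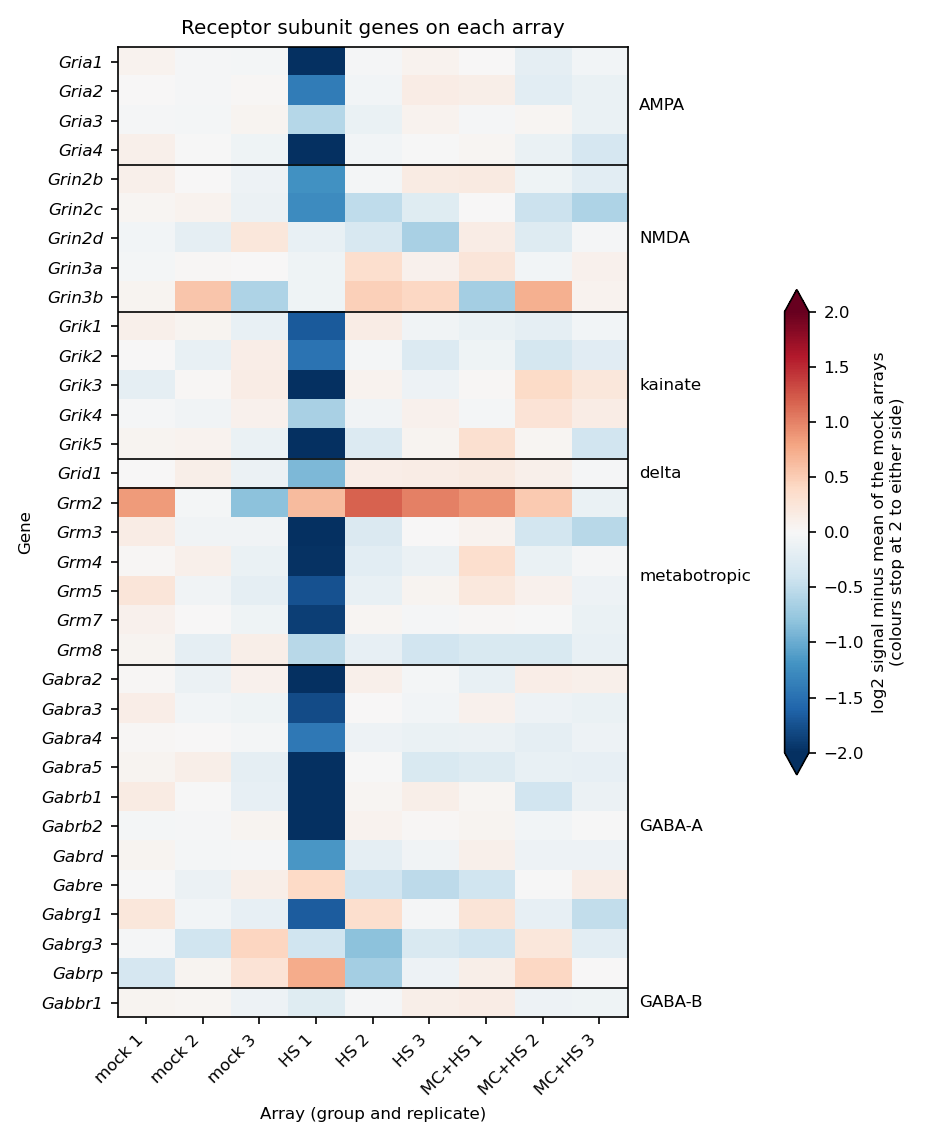
Log2 signal of the 33 measured receptor genes (rows, by receptor group) on each of the 9 arrays (columns), minus the mean of the 3 mock arrays, by the brightest probe set of each gene. Blue marks a lower and red a higher reading, with colours ending at 2 to either side. HS replicate 1 is blue for most genes, Grm2 is red on both of the other HS arrays, and most other cells are pale.

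The comparison of HS with mock asks how expression in the tissue around the injection sites differed after the vector purified by centrifugation alone. No receptor subunit passed the test. With all 9 arrays limma called 0 of 65 receptor probe sets at a Benjamini-Hochberg adjusted p under 0.05, where 0.775% of all 28257 measured probe sets were called, and 4 of 65 were under an unadjusted p of 0.05, where 6.67% of all were. With that replicate left out it called 0 of 64, against 3.32% of 27973, and 5 were under the unadjusted threshold, against 14.2%. The probe set that dropped out is Gabbr1 1425595_at, which read 9.45 on HS replicate 1 and between 6.78 and 6.85 in the mock mice.

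With 9 arrays the median HS minus mock difference of the 33 genes was -0.54, against -0.23 over all genes. Of the 33, 30 lay below 0, where 10072 of 13331 genes in all did. Without HS replicate 1 the median was -0.02 against 0.05, and the genes ran from Gabrg3 at -0.57 to Grm2 at 1.09. There 15 genes were above 0 and 18 below, where 5107 of 13224 genes in all were below. The receptor median therefore rests on HS replicate 1. In 5 receptor probe sets both remaining HS mice were above all mock mice, where 22.1% of all probe sets were so, and in 14 both were below, where 13.5% were.

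Precision was set by the mouse-to-mouse spread. On the 8 arrays the median within-group SD of a receptor probe set was 0.15, against 0.16 over all measured probe sets, and with HS replicate 1 it was 0.50 against 0.33. Without that array the 95% interval of the HS minus mock difference lay wholly within 1.5-fold of no difference for 24 of 33 receptor genes (72.7%, against 70.9% of all genes) and within 2-fold for 30. For those 30 genes a change of 2-fold or more lies outside the interval of the brightest probe set, which stands for the gene in these counts. Some dimmer probe sets of the same genes reached past 2-fold, such as Grin2b 1431700_at (-1.17 to -0.26) and Gabra2 1449807_x_at (-2.22 to 0.52). The 3 genes with wider intervals were Grm2, Grin3b and Gabrg3. With 9 arrays the interval was within 2-fold for 9 of 33 receptor genes, a smaller share than over all genes (27.3% against 53.6%).

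**Figure D3:**
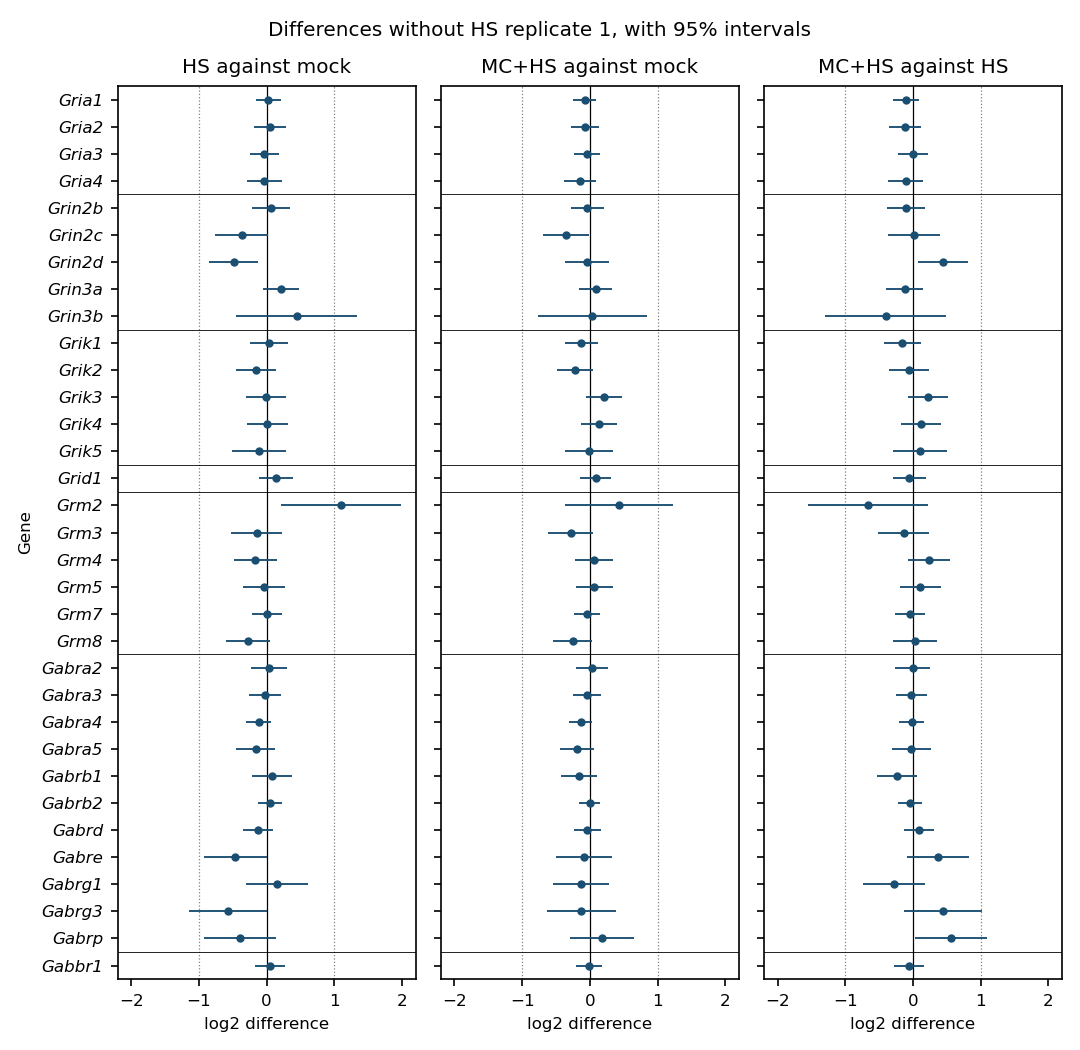
Differences of the 33 measured receptor genes (rows) in the 3 comparisons without HS replicate 1, as log2 differences (horizontal axis) with 95% intervals from limma. Each gene is shown by its brightest probe set. Dotted lines mark a 2-fold difference. Most intervals span 0 and stay between the dotted lines, and Grm2 in HS against mock has the highest estimate, 1.09.

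The comparison of MC+HS with mock sets the vector purified by chromatography and centrifugation against medium that had gone through the same purification. It shares its mock mice with the comparison above, so the results of these comparisons are not separate evidence. Again no receptor subunit passed. Limma called 0 of 65 probe sets with 9 arrays, against 0.58% of all, with 1 of 65 under an unadjusted p of 0.05, against 4.89%. HS replicate 1 enters this comparison only through the shared estimate of the spread and the filter that decides which probe sets are tested. Without that array limma called 0 of 64, against 3.34%, with 5 under the unadjusted threshold, against 14.2%.

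The median MC+HS minus mock difference of the 33 genes was -0.04 in both fits, against 0.01 over all genes. The differences ran from Grin2c at -0.35 to Grm2 at 0.43 and lay above 0 for 10 genes and below it for 23. Over all genes on the 8 arrays, 6407 of 13224 were below 0. In 2 receptor probe sets all MC+HS mice were above all mock mice, against 8.79% of all probe sets, and in 8 all were below, against 9.84%. The 95% interval from the 8 arrays was within 1.5-fold for 27 of 33 genes (81.8%, against 79.4% of all genes) and within 2-fold for 32, with Grm2 as the exception. These counts take the brightest probe set of each gene. Dimmer probe sets of Gabra3 (1421263_at, -2.34 to -0.55) and Gabra2 (1449807_x_at, -1.63 to 0.82) had intervals that reached past 2-fold.

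The direct comparison of MC+HS with HS addresses the purification itself, both groups having received vector. Limma called 0 of 65 receptor probe sets with 9 arrays, where it called 0% of all, and 2 were under an unadjusted p of 0.05, against 3%. With 8 arrays it called 0 of 64, against 0.00357% of all, with 7 under the unadjusted threshold, against 7.65%. The median difference was 0.39 with 9 arrays, against 0.23 over all genes, and -0.02 against -0.05 without HS replicate 1. In 3 probe sets the MC+HS mice were all above the 2 remaining HS mice, against 7.52% of all probe sets, and in 6 all below, against 16.8%. The interval was within 2-fold for 29 of 33 genes, and the exceptions were Grm2, Grin3b, Gabrg3 and Gabrp.

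Differences given for single genes below are from the 8 arrays, each with its standard error and, where an adjusted p is given, limma with Benjamini-Hochberg adjustment over all measured probe sets. The value on HS replicate 1 is printed with the others. None of these differences passed the adjusted threshold.

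Among the AMPA receptor subunits, which form the channels of fast excitation, the brightest probe sets were close in all groups apart from HS replicate 1. Gria1, a pore-forming subunit, read 12.59, 12.51 and 12.49 in the mock mice, 10.24, 12.51 and 12.60 in the HS mice and 12.54, 12.36 and 12.47 in the MC+HS mice. Gria2, the subunit that limits calcium entry, read 12.53, 12.50 and 12.55 in mock, 11.13, 12.48 and 12.67 in HS and 12.65, 12.32 and 12.39 in MC+HS by its brightest probe set (1421970_a_at). The groups overlapped for both genes once HS replicate 1 was set aside, with HS minus mock differences of 0.03 ± 0.09 and 0.05 ± 0.11. Gria3 read 11.67, 11.66 and 11.74 in mock, 11.12, 11.56 and 11.76 in HS and 11.68, 11.73 and 11.56 in MC+HS (1434728_at). Gria4, found in fast-spiking interneurons among other cells, read 10.98, 10.89 and 10.80 in mock, 7.85, 10.84 and 10.88 in HS and 10.93, 10.76 and 10.55 in MC+HS. By these brightest probe sets, all 4 genes had HS minus mock and MC+HS minus mock intervals within 1.5-fold of no difference on the 8 arrays. Dimmer Gria4 probe sets had wider ones, -0.61 to 0.25 for HS (1440891_at) and -0.69 to 0.05 for MC+HS (1421351_at).

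Other probe sets of Gria2 and Gria3 gave small differences in opposite directions. Gria2 1434146_at read 11.89, 11.84 and 11.99 in mock, 7.93, 12.11 and 12.16 in HS and 12.15, 12.17 and 12.08 in MC+HS. All MC+HS mice and HS replicates 2 and 3 were above all mock mice, by 0.23 ± 0.09 for HS (adjusted p = 0.247) and 0.23 ± 0.08 for MC+HS (adjusted p = 0.185). Gria2 1453098_at read 10.70, 10.75 and 10.82 in mock, 9.20, 11.01 and 11.01 in HS and 10.81, 10.88 and 10.94 in MC+HS, a difference of 0.25 ± 0.09 for HS against mock (adjusted p = 0.23). Gria3 1420563_at read 10.82, 10.69 and 10.74 in mock, 9.11, 10.38 and 10.66 in HS and 10.58, 10.49 and 10.46 in MC+HS. All vector mice were below all mock mice on this probe set, by -0.24 ± 0.10 for MC+HS (adjusted p = 0.285), whereas the brightest Gria3 probe set gave -0.04 ± 0.09.

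Among the NMDA receptor subunits, Grin2b, the subunit with slow channel kinetics that is prominent in forebrain, read 11.78, 11.70 and 11.58 in mock, 10.47, 11.65 and 11.86 in HS and 11.87, 11.60 and 11.48 in MC+HS by its brightest probe set (1442370_at), with overlapping groups. A dim probe set of the same gene, 1431700_at, read 6.81, 6.88 and 6.83 in mock, 6.72, 5.91 and 6.34 in HS and 7.06, 7.21 and 6.96 in MC+HS. On that probe set the HS mice were below and the MC+HS mice above all mock mice. It had the smallest unadjusted p among receptor probe sets in the direct comparison, 0.000849, with an MC+HS minus HS difference of 0.94 ± 0.21 (adjusted p = 0.274) and an HS minus mock difference of -0.71 ± 0.21 (adjusted p = 0.113). The brightest Grin2b probe set gave -0.10 ± 0.13 and 0.06 ± 0.13 for the same comparisons. Another bright Grin2b probe set, 1457003_at, gave 0.03 ± 0.11 and -0.10 ± 0.11, with all HS mice below all mock mice.

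Grin2c and Grin2d, further subunits that modify channel kinetics, gave the lowest HS minus mock estimates among the NMDA genes. Grin2c read 9.06, 9.10 and 8.91 in mock, 7.77, 8.52 and 8.79 in HS and 9.03, 8.59 and 8.40 in MC+HS. Its HS mice were all below the mock mice and its MC+HS mice overlapped them, with a difference of -0.35 ± 0.16 for MC+HS against mock (adjusted p = 0.344). Grin2d read 9.17, 9.05 and 9.46 in mock, 9.08, 8.91 and 8.57 in HS and 9.37, 8.97 and 9.21 in MC+HS. HS replicates 2 and 3 were below all other mice of the study, by -0.49 ± 0.16 against mock (adjusted p = 0.186), and MC+HS minus HS was 0.44 ± 0.16 (adjusted p = 0.577). HS replicate 1 fell inside the mock range for this gene. Grin3a, a subunit that lowers calcium permeability, read 9.63, 9.69 and 9.69 in mock, 9.59, 10.01 and 9.76 in HS and 9.91, 9.61 and 9.75 in MC+HS. Grin3b varied widely among mice of all groups, with a within-group SD of 0.58 on the 8 arrays.

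The kainate receptor subunits act before and after the synapse. By their brightest probe sets, all 5 genes had intervals within 1.5-fold in all 3 comparisons on the 8 arrays. A dimmer Grik2 probe set, 1425790_a_at, had wider intervals, -0.79 to 0.15 for HS and -0.64 to 0.19 for MC+HS against mock. All HS mice were below all mock mice on it. Grik1 read 9.08, 9.02 and 8.82 in mock, 7.29, 9.12 and 8.90 in HS and 8.84, 8.80 and 8.92 in MC+HS. Grik2 read 8.95, 8.80 and 9.08 in mock, 7.46, 8.90 and 8.66 in HS and 8.85, 8.59 and 8.71 in MC+HS. These are low-affinity subunits that can form channels alone, and their groups overlapped on the brightest probe sets. Grik3, of the same class, read 10.22, 10.44 and 10.56 in mock, 7.47, 10.49 and 10.31 in HS and 10.44, 10.79 and 10.64 in MC+HS. Grik5, a high-affinity subunit that needs a partner, read 11.48, 11.50 and 11.29 in mock, 7.46, 11.15 and 11.47 in HS and 11.74, 11.46 and 11.04 in MC+HS. The groups of both overlapped, and the MC+HS minus mock differences were 0.21 ± 0.12 for Grik3 and -0.01 ± 0.16 for Grik5. Grid1, the delta receptor gene that acts as a synaptic organizer, gave 0.14 ± 0.11 for HS and 0.08 ± 0.10 for MC+HS against mock.

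Among the metabotropic glutamate receptors, Grm2 had the largest difference of all receptor genes in HS against mock. Grm2, a receptor of glutamatergic terminals that lowers transmitter release, read 8.93, 8.05 and 7.27 in mock, 8.72, 9.26 and 9.10 in HS and 8.98, 8.61 and 7.96 in MC+HS. HS replicates 2 and 3 were above all other mice, and the mock mice differed widely among themselves. The difference was 1.09 ± 0.40 (95% interval 0.21 to 1.98, adjusted p = 0.228), and with HS replicate 1, which read inside the mock range, 0.94 ± 0.41 (adjusted p = 0.635). Without mock replicate 1, the highest mock reading, the HS minus mock difference was 1.52 (adjusted p = 0.036). Without mock replicate 3, the lowest, no receptor probe set passed in HS against mock on the remaining arrays (smallest adjusted p 0.195, Grin2b). For MC+HS against mock the Grm2 difference was 0.43 ± 0.36, with overlapping mice.

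The mock mouse with the lowest Grm2 reading, replicate 3, also read low on thalamic and choroid plexus markers. The 4 thalamic markers had a median of -0.87 relative to the mock mean on that array (-1.27 to -0.39), against 0.29 and 0.53 on the other mock arrays, and the 3 choroid plexus markers measured had one of -1.04 (-2.82 to -0.56), against 0.53 and 0.51. The thalamic median was -1.34, 0.10 and -0.39 on the HS arrays and -0.16, -0.59 and 0.05 on the MC+HS arrays. Grm2 read 8.72, 9.26 and 9.10 on the same HS arrays and 8.98, 8.61 and 7.96 on the MC+HS arrays. The choroid plexus median was -1.22, -0.36 and -0.64 on the HS arrays and -0.40, -0.77 and -0.58 on the MC+HS arrays. The part of thalamic and choroid plexus tissue in the Grm2 readings was not tested. A second GABA-A alpha 4 probe set, Gabra4 1429330_at, was also lowest among the mock mice in replicate 3, at 9.46 against 10.39 and 10.31.

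Of the other metabotropic receptors, Grm5, a postsynaptic receptor coupled to calcium release, read 11.31, 11.01 and 10.90 in mock, 9.33, 10.93 and 11.13 in HS and 11.28, 11.16 and 10.97 in MC+HS (1456119_at). A second Grm5 probe set, 1455272_at, read 11.05, 11.03 and 11.20 in mock, 9.26, 11.17 and 11.25 in HS and 11.00, 10.96 and 10.77 in MC+HS, and gave an MC+HS minus HS difference of -0.30 ± 0.10 (adjusted p = 0.558). The first Grm5 probe set gave 0.11 ± 0.14 for that comparison, in the opposite direction. Grm3, found in astrocytes and neurons, read 11.27, 11.05 and 11.05 in mock, 7.96, 10.83 and 11.13 in HS and 11.19, 10.76 and 10.56 in MC+HS. Grm4, a presynaptic receptor, read 9.99, 10.07 and 9.82 in mock, 7.99, 9.75 and 9.84 in HS and 10.30, 9.84 and 9.94 in MC+HS. Grm7, another presynaptic receptor, read 10.90, 10.81 and 10.71 in mock, 8.93, 10.85 and 10.78 in HS and 10.83, 10.80 and 10.67 in MC+HS. The groups of these 3 genes overlapped, and the MC+HS minus mock difference was furthest from 0 in Grm3, at -0.29 ± 0.15 (adjusted p = 0.453). Grm8, the remaining gene of this group, gave -0.28 ± 0.15 for HS and -0.25 ± 0.13 for MC+HS against mock.

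Among the GABA-A receptor subunits, the beta subunits, which are needed for channel assembly, were close in all mice but HS replicate 1. Gabrb2 read 12.42, 12.44 and 12.51 in mock, 9.93, 12.53 and 12.47 in HS and 12.51, 12.41 and 12.45 in MC+HS. Its intervals were among the narrowest of the receptor genes, -0.13 to 0.22 for HS and -0.16 to 0.16 for MC+HS against mock. Gabrb1 read 11.99, 11.82 and 11.67 in mock, 9.72, 11.86 and 11.95 in HS and 11.87, 11.43 and 11.70 in MC+HS (1419719_at). A second Gabrb1 probe set, 1443205_at, read 10.09, 9.96 and 9.96 in mock, 8.59, 9.91 and 9.79 in HS and 9.73, 9.74 and 9.92 in MC+HS. All vector mice were below all mock mice on it, by -0.21 ± 0.10 for MC+HS (adjusted p = 0.371).

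The alpha subunits shape the GABA-A channel's kinetics and drug binding. Gabra4, a subunit of extrasynaptic receptors in striatal neurons, read 11.52, 11.51 and 11.45 in mock, 10.06, 11.39 and 11.36 in HS and 11.37, 11.32 and 11.39 in MC+HS (1433707_at). All vector mice were below all mock mice, but by only -0.12 ± 0.08 for HS and -0.13 ± 0.08 for MC+HS (adjusted p = 0.596 and 0.48). Gabra2 1443865_at read 9.26, 9.13 and 9.31 in mock, 8.06, 9.35 and 9.19 in HS and 9.06, 8.96 and 8.84 in MC+HS, with an MC+HS minus mock difference of -0.28 ± 0.10 (adjusted p = 0.228). The brightest Gabra2 probe set (1455444_at) gave 0.03 ± 0.11 for that comparison. Gabra5, mainly a subunit of extrasynaptic receptors, gave -0.16 ± 0.13 for HS and -0.19 ± 0.12 for MC+HS.

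Gabra3, another alpha subunit, had the widest gap between probe sets of 1 gene in MC+HS against mock. Its brightest probe set, 1436957_at, read 11.63, 11.44 and 11.40 in mock, 9.70, 11.50 and 11.43 in HS and 11.58, 11.39 and 11.36 in MC+HS, with an MC+HS minus mock difference of -0.05 ± 0.09. A dim probe set, 1421263_at, read 7.11, 7.04 and 7.75 in mock, 7.14, 7.09 and 6.95 in HS and 4.81, 6.03 and 6.72 in MC+HS. All 3 MC+HS mice were below all other mice on it, and their deposited signals were 9.85, 56.1 and 88.6 intensity units against 111 to 188 in mock. The difference was -1.44 ± 0.40 against mock (adjusted p = 0.0926) and -1.17 ± 0.45 against HS (adjusted p = 0.598). Without MC+HS replicate 3, the highest MC+HS reading, it was -1.88 against mock (adjusted p = 0.0233). Without MC+HS replicate 1, the lowest, no receptor probe set passed against mock (smallest adjusted p 0.055, Grin2c). Nor did any without MC+HS replicate 2 (smallest adjusted p 0.19).

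The remaining GABA-A genes were dimmer or gave small differences. Gabre, the epsilon subunit, read 7.06, 6.94 and 7.18 in mock, 7.46, 6.67 and 6.53 in HS and 6.66, 7.05 and 7.21 in MC+HS. HS replicates 2 and 3 were below all mock mice, by -0.46 ± 0.21 (adjusted p = 0.353), and replicate 1 was above them. Gabrp, the pi subunit, read 6.85, 7.24 and 7.45 in mock, 7.93, 6.50 and 7.09 in HS and 7.30, 7.59 and 7.19 in MC+HS. Its MC+HS minus HS difference was 0.57 ± 0.24 (adjusted p = 0.625), and HS replicate 1 read above all other mice. Gabrg3, a gamma subunit, gave -0.57 ± 0.26 for HS against mock (adjusted p = 0.364), and Gabrg1, another gamma subunit, 0.16 ± 0.21. Gabrd, the delta subunit of extrasynaptic receptors, gave -0.12 ± 0.10 and -0.04 ± 0.09 for HS and MC+HS against mock. Gabbr1, the subunit of the GABA-B receptor that binds the transmitter, gave 0.05 ± 0.10 and -0.01 ± 0.09.

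**Figure D4:**
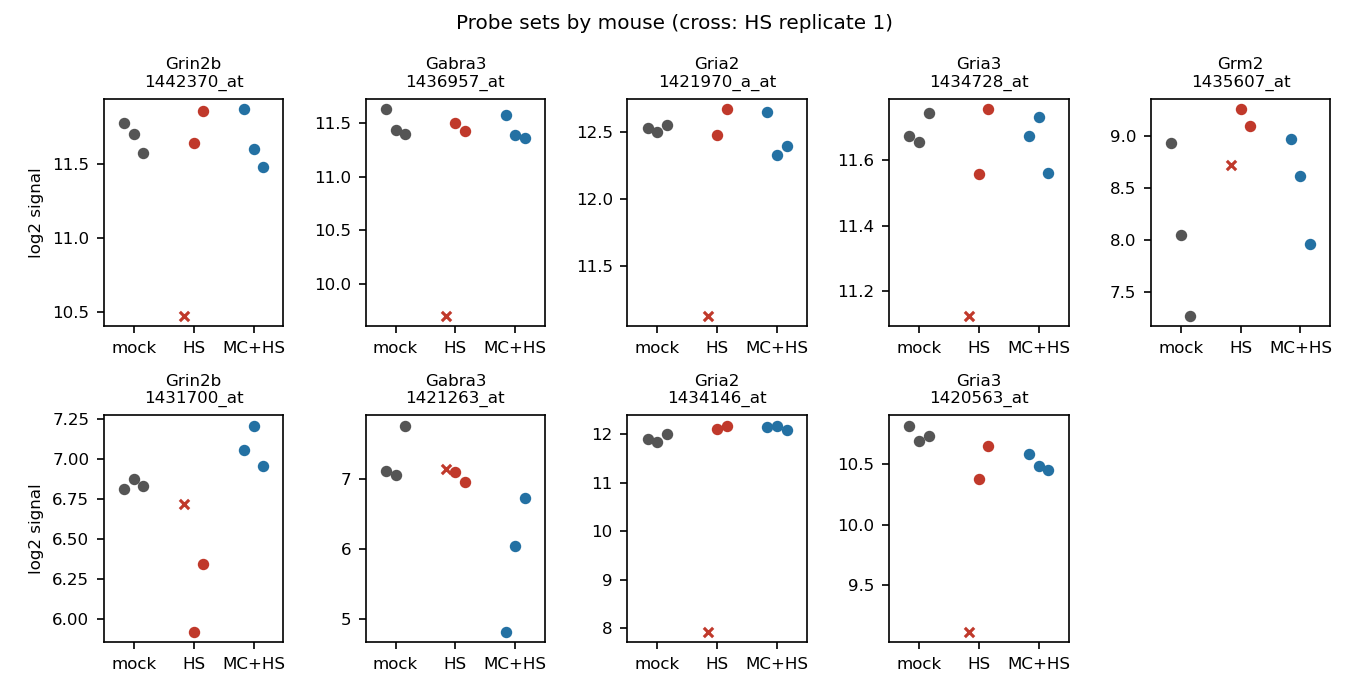
Log2 signal (vertical axis, with its own range in each panel) of 9 receptor probe sets, the brightest of a gene above and, where there is another, the one with the smallest p below, in each mouse of the mock, HS and MC+HS groups, with HS replicate 1 as a cross. The dim Grin2b probe set 1431700_at separates all groups, and the dim Gabra3 probe set 1421263_at separates MC+HS from mock and HS, which overlap. On the brightest probe sets of these genes the groups overlap. The mock mice spread most widely for Grm2.

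Several genes had measured probe sets that differed in direction. Of 19 genes with more than 1 measured probe set, all sets had the same sign for 10 in HS against mock, 10 in MC+HS against mock and 13 in MC+HS against HS. In HS against mock the sign differed within Grin2b, Grin3a, Grm5, Grm7, Gabra2, Gabra4, Gabrb1, Gabrb2 and Gabbr1. In MC+HS against mock it differed within Gria2, Grin2b, Grin2d, Grin3a, Grid1, Grm5, Grm7, Gabra2 and Gabrp, and in MC+HS against HS within Gria4, Grin2b, Grik2, Grm5, Gabra2 and Gabrb2. Most receptor probe sets varied little among the mice of a group, 46 of 65 having a within-group SD under 0.2 on the 8 arrays and 7 one over 0.3. The highest SDs were those of Gabra2 1449807_x_at (0.94), Gabra3 1421263_at (0.66) and Grm2 (0.62).

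The genes that work with these receptors gave the same count as the subunits. Limma called 0 of 16 auxiliary subunit genes (such as the AMPA receptor partner Cacng2), 0 of 20 excitatory scaffold genes (such as Dlg4, which encodes PSD-95), 0 of 7 inhibitory scaffold genes (such as Gphn, which encodes gephyrin) and 0 of 12 genes of transmitter synthesis, vesicle loading and uptake (such as Gad1 and Gad2, which make GABA), in any comparison with 9 or 8 arrays. With 9 arrays 1 of the excitatory scaffold genes was under an unadjusted p of 0.05 in HS against mock, and 0 of these lists' other genes were in any comparison. Over all measured genes the calls made up 0.93%, 0.713% and 0% with 9 arrays and 4.21%, 3.68% and 0.00756% with 8, for HS against mock, for MC+HS against mock and for the direct comparison respectively. An unadjusted p under 0.05 was reached on the 8 arrays by 0, 2, 0 and 1 genes of these lists in HS against mock, where 16.2% of all genes reached it. The counts were 0, 2, 0 and 2 in MC+HS against mock, against 14.2%, and 0, 2, 0 and 0 in MC+HS against HS, against 6%. The smallest adjusted p was that of the scaffold gene Dlgap2 in HS against mock, with a difference of -0.58 ± 0.14 (adjusted p = 0.0575).

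Markers of neurons gave 0 calls. Limma called 0 of 10 pan-neuronal, 0 of 8 medium spiny neuron, 0 of 5 cortical and 0 of 7 interneuron markers in any comparison of either fit. With 9 arrays 0 of them were under an unadjusted p of 0.05 in any comparison. With 8 arrays 1, 0, 0 and 3 were in HS against mock, where 16.2% of all genes were, 1, 1, 0 and 3 in MC+HS against mock, against 14.2%, and 0 in MC+HS against HS. The interneuron count, 3 of 7, is above those shares. These genes were Sst (-0.36 ± 0.15), Cck (-0.28 ± 0.08) and Vip (0.39 ± 0.14) with HS and Sst (-0.31 ± 0.13), Npy (-0.31 ± 0.13) and Cck (-0.19 ± 0.07) with MC+HS.

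Calls among markers of other cell types were nearly all from the 8 arrays, where 4.21% of all genes were called in HS against mock and 3.68% in MC+HS against mock. The astrocyte markers had 3 of 8 called higher with HS (median 0.25, -0.27 to 1.47) and 2 of 8 with MC+HS (median 0.17, -0.29 to 1.28). Gfap, a gene of reactive astrocytes, rose by 1.47 ± 0.27 and 1.28 ± 0.24 (adjusted p = 0.012 and 0.0146), while S100b was at -0.27 and -0.29 and did not pass. Of the microglia and macrophage markers 1 of 8 was called higher and 1 of 8 lower in each comparison, with medians of 0.16 with HS (-0.67 to 2.02) and 0.07 with MC+HS (-0.998 to 1.78). The leukocyte gene Ptprc rose by 2.02 ± 0.26 and 1.78 ± 0.23 (adjusted p = 0.000984 and 0.00124), and the microglial gene P2ry12 fell by 0.67 ± 0.13 and 0.998 ± 0.11 (adjusted p = 0.0142 and 0.000621). The endothelial and pericyte markers had 2 of 6 called higher in each, with medians of 0.53 and 0.40, and the oligodendrocyte markers 1 of 6 called higher with HS and 0 of 6 with MC+HS. With all 9 arrays limma called 0 astrocyte, endothelial and oligodendrocyte markers and 1 microglial marker, P2ry12, lower with MC+HS. An unadjusted p under 0.05 was then reached by 0 astrocyte, 1 endothelial and 0 oligodendrocyte markers with HS and by 0, 3 and 0 with MC+HS. In this bulk tissue fewer cells of a type and less RNA per cell cannot be told apart, and the part of these other cells in the receptor values was not tested.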

How the data were processed

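RNA was prepared with Trizol and a column, per the labels. The deposited table holds linear intensity values, 1 for each probe set on each array. The submitters' processing notes name GCOS 1.4.0.036, and how values were summarised or scaled was not given in the sources used here. Signals were turned into log2(signal + 16) and array medians set equal, with the largest shift, 0.66, for HS replicate 3. The 64 control probe sets and those not above the 40th percentile on at least 3 arrays were left out. The test was limma's, version 3.58.1 in R 4.3.3 (lmFit and eBayes, intensity trend, group as the only term, 3 contrasts, two-sided), with Benjamini-Hochberg adjustment, called under 0.05, and was checked on simulated data. A gene is given by its probe set with the highest mean over the 9 arrays.

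Symbols came from the platform annotation, and all 38 receptor genes matched RefSeq (GRCm38.p6); 2 probe sets with several symbols were left out. No coordinates are given, since the array's build was not stated. Same-numbered mice were not taken as pairs. Values in every mouse are given for the 6 receptor probe sets with the smallest unadjusted p per comparison on the 8 arrays and the 4 brightest genes of the AMPA, NMDA, kainate, metabotropic and GABA-A groups. Members and lists were chosen with earlier results of these data known. Alternatives were pseudocounts of 1 and 64, other filters, scalings and priors, array weights, a replicate block, 2 groups only, and leaving out each array.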

Additional observations from a re-analysis of the deposited data

How the results depend on the processing

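On the 8 arrays, receptor probe sets called by limma in HS against mock numbered 0, and 3 with the deposited scaling (Grm2 and the Gria2 probe sets 1434146_at and 1453098_at; all-gene median 0.49), 1 with no intensity trend (Grin2b 1431700_at) and 1 with the replicate block (Grm2, 1.42); leaving out 1 array gave 0 to 1 (Grm2 without mock replicate 1). In MC+HS against mock, 0 became 1 with the deposited scaling and 1 with the replicate block (both Gabra3 1421263_at), 1 with array quality weights (Gria2 1434146_at) and 0 to 1 without 1 array (Gabra3 without MC+HS replicate 3). In MC+HS against HS the deposited scaling gave 2 (Gabra3, Grm2), and leaving out 1 array 0 to 0. The other alternatives gave 0. The mice shared only a number, their same-number correlations of deviations ranging from -0.17 to 0.29, and with 9 arrays the block gave 0 calls.

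With 9 arrays, weights gave 18, 2 and 20 calls in the 3 comparisons in the order above, but their estimate did not converge, with weights of 48.7 for HS replicate 2 and 0.015 for HS replicate 1; leaving out 1 array gave 0 to 0 in each. These weights also turned the sign of Gria2 1453098_at in HS against mock (0.26) and, in MC+HS against HS, of Gabra2 1443865_at (-0.42), Grm5 1455272_at (-0.28), Grik1 (-0.27), Grik2 (-0.23) and Gabrb1 1419719_at (-0.26).

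The 9-array median in HS against mock was -0.044 with these weights and -0.78 to -0.024 without 1 array, the upper value without HS replicate 1; the ranges were -0.10 to -0.01 in MC+HS against mock and -0.02 to 0.65 in MC+HS against HS. On the 8 arrays the HS median was 0.042 with a pseudocount of 64, -0.11 with quantile normalization, 0.41 with the deposited scaling and -0.04 to 0.02 without 1 array. The MC+HS against mock range was -0.10 to -0.01. The MC+HS against HS median was -0.093 with a pseudocount of 64, -0.44 with the deposited scaling and -0.08 to -0.01 without 1 array. Of 3599 values of named probe sets under alternatives, 3563 stayed on the same side of the threshold. Another 30 newly passed it with the same sign and 6 turned, as given above. A change of sign counted as turned only with a limma call in either setting or an unadjusted p under 0.05 in the main fit. Other changes of sign are among the 3563. Gria2 1434146_at in HS against mock, for example, was -1.18 with 9 arrays and 0.23 without HS replicate 1. The causes were not tested.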
